A study of Vitis vinifera with 6 samples.

Results

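The gene models described here rose at least 4-fold in grape berry skin under ultraviolet-C light and were measured above background on every array. No strongly rising gene model was seen close by in the annotation, as far as neighbours were on the array. The gene models so chosen numbered 158 of the 29549 probe sets on the array (0.535%). Intensity, the mean brightness of the 4 probes that represent a gene model, was put on the log2 scale, and each array's median was subtracted. The change of a gene model was its mean over the UV arrays minus its mean over the dark arrays, and had to be at least 2. The background limit of an array was the average of its random-sequence control probes with 2 of their SD added. A gene model was dropped when another one within 3 running numbers of the same annotation block changed by at least 1. Models without a running number were kept. Models of chromosome 18 without a position, of block 100 on chromosome 16 and of block 42 on chromosome 10 were left out. Since the difference between UV and dark chose these gene models, that difference is described and not tested.

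The samples were skins of Pinot Noir berries, a red wine cultivar of Vitis vinifera, picked in a vineyard. For the UV group, a lamp with its emission at 253.7 nm shone on berry clusters for 1 hour from 50 cm away. The dark group stood beside the lamp under a box for the same 1 hour. Each group had 3 one-colour arrays, which the labels assign to separate clusters and call wild type. Neither the age of the berries nor the delay from irradiation to sampling was given in the sources used here. Total RNA of the whole skin was measured, so a shift in cell types and a change in RNA per cell cannot be told apart.

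UV-C is the short-wave band of ultraviolet light and is absorbed by DNA, and plant cells answer it with a stress response at the level of transcription. In grape berry skin, the coloured outer layer of the fruit, UV-C is used as an elicitor of stilbenes such as resveratrol, defence compounds made from phenylalanine through the phenylpropanoid pathway. Plant genes of specialised metabolism often lie as copies side by side. Copies that rise side by side fail the rule used here, while a copy whose neighbours did not rise can pass it. None of the array's 29549 identifiers, those of the 158 models included, matched any of the 29591 genes of the reference table, which names genes by another scheme, so no function is given to any of them, and the tissue could not be checked against marker genes.

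Median intensity over all probe sets was 8967 to 9591 units on the UV arrays and 9155 to 11200 units on the dark arrays. Background limits lay between 1156 and 1330 units on the UV arrays and between 1296 and 1434 units on the dark arrays. On single arrays, 84.3% to 88.8% of the sets exceeded their limit. After median centring, the correlation over all sets was at least 0.989 within a group and at most 0.962 between groups. The image identifiers in the files share 1 slide number and give the UV arrays one run of positions and the dark arrays another. The labels name no slide, and if these identifiers are slide positions, position and treatment cannot be told apart.

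A change of at least 2 was found for 370 probe sets (1.25% of all), and 36 of these were not above background on all 6 arrays. Of the remaining 334, 158 (47.3%) met the rule, and 176 were dropped, 158 of them for a rising neighbour and 18 as members of the groups of identifiers left out. Where all 6 neighbouring models were on the array, which was the case for 220 of the 334, 87 were isolated (39.5%). Only 87 of the 158 isolated models thus had all 6 neighbours on the array. The neighbourhood of the others was seen in part or not at all. For 24 of the 158 no neighbour could be looked at: 15 carried no running number, and 9 had no other model within 3 numbers.

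After UV the isolated gene models were of middle to high brightness, and in the dark of low to middle brightness. Their mean intensity after UV ran from 5833 to 57426 units, with a median of 23904 units. In the dark it ran from 1473 to 14197 units, with a median of 3496 units. Intensity depends on the probes as well as on the transcript, so these levels do not rank the genes by abundance. The choice also bounds them: no set on any array was brighter than 63020 units, and 48.2% of the 24460 sets above background had a dark mean over 15755 units, from which a 4-fold rise would pass that value.

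**Figure D1:**
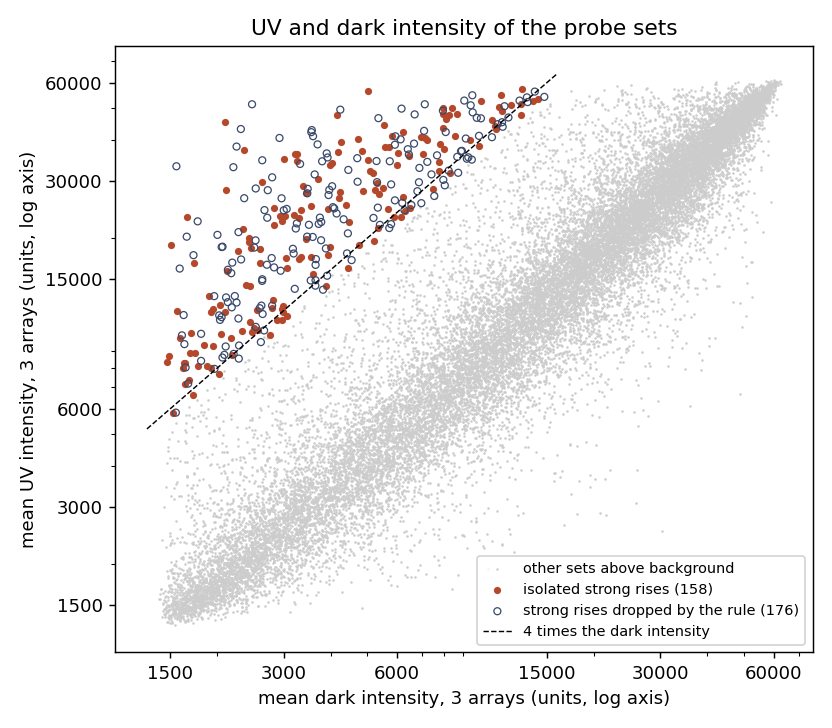
Mean intensity after UV (vertical) against mean intensity in the dark (horizontal), both over 3 arrays on log axes, for the 158 isolated strong rises (filled), the 176 strong rises that the rule dropped (open) and the other sets above background (grey). The isolated and the dropped models lie over the same range, above the dashed line at 4 times the dark intensity, which differs slightly from the rule because the axes show intensities before median centring.

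On the log2 scale the isolated models had a median change of 2.58, which is 5.98-fold, and a highest change of 4.57. There were 71 models between 2 and 2.5, 51 from 2.5 up to 3, and 36 at 3 or above, of which 2 were at 4 or above. All 3 UV arrays lay above all 3 dark arrays in each of the 158, against 23.3% of all probe sets, a separation that follows from the choice. In 93 of them even the lowest UV array exceeded the highest dark array by at least 2. After background correction and quantile normalization, limma called all 158 higher at an adjusted p under 0.05, against 15.8% of all sets called higher and 36.6% called in either direction, which again follows from the choice. The median change in that fit was 2.78, with a median standard error of 0.17.

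The 6 gene models with the largest change lay on 5 chromosomes and on unplaced sequence. CHR6_JGVV4_772_T01 on chromosome 6 led them, with 49093, 37957 and 49652 units in UV replicates 1, 2 and 3, against 2066, 1934 and 2296 units in dark replicates 1, 2 and 3. The arrays of each group stayed close together and the groups lay far apart, with a change of 4.57, or 23.8-fold. CHR14_GSVIVT00036532001_T01 on chromosome 14 had 38618, 34394 and 38836 units under UV and 2126, 2677 and 2258 units in the dark, a change of 4.13. This model carries no running number, so whether it stands alone was not seen. CHRUN_JGVV471_2_T01, on sequence not placed on any chromosome, had 24167, 22512 and 22776 units under UV and 1613, 1467 and 1895 units in the dark, a change of 3.95.

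The next 3 differed in how well their arrays agreed. CHR5_JGVV77_124_T01 on chromosome 5 had 35482, 31352 and 17718 units in UV replicates 1, 2 and 3, against 1545, 1690 and 3086 units in the dark replicates of the same numbers. Replicate 3 was the low one among the UV arrays and the high one among the dark arrays, with a change of 3.89 on the scale of the rule. In the limma fit its change was 4.36, with a standard error of 0.41. CHR18_JGVV1_21_T01 on chromosome 18 had 19265, 17623 and 20380 units under UV and 1607, 1432 and 1479 units in the dark, a change of 3.80. Its dark values exceeded the background limit by as little as 1.03 times. CHR7_JGVV5_85_T01 on chromosome 7 had 61187, 52950 and 55089 units under UV and 3467, 4110 and 7498 units in the dark, a change of 3.71. Its value in UV replicate 1 was close to the highest of any set on that array, 62257 units. The dark replicate 3 stood well above the other dark arrays.

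**Figure D2:**
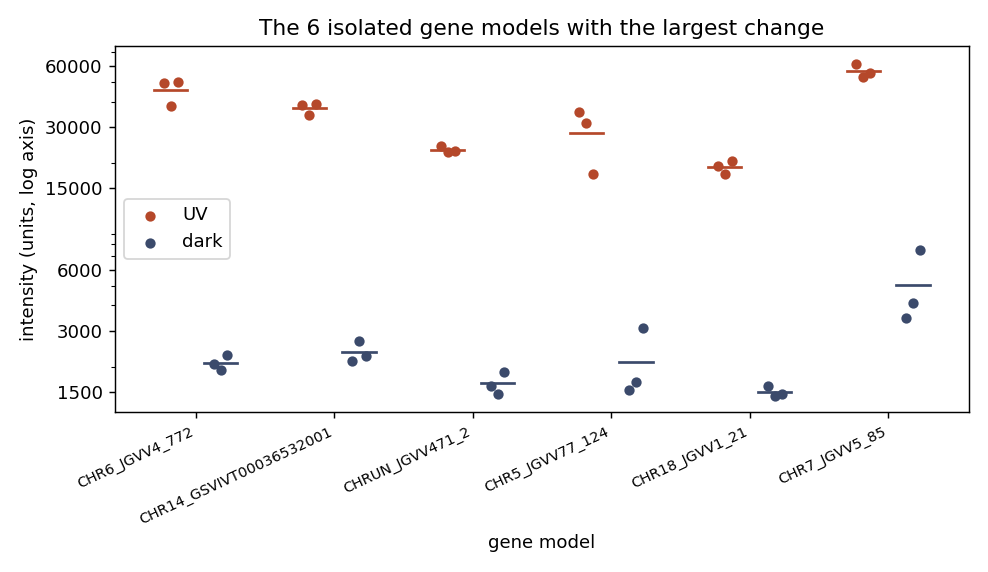
Intensity in units (vertical, log axis) on each array for the 6 isolated gene models with the largest change, UV points left of dark points, with a bar at each group mean (n = 3). UV and dark points do not overlap in any of the 6, and CHR5_JGVV77_124 shows the widest spread among its UV arrays (17718 to 35482 units).

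At the bright end, 11 of the 158 averaged over 50000 units after UV. Besides the chromosome 7 model above, the brightest were CHR4_JGVV44_17_T01 and CHR18_JGVV1_283_T01. The chromosome 4 model had 58213, 57385 and 56681 units under UV and 13037, 12841 and 12866 units in the dark, with a change of 2.29. The model on chromosome 18 had 55443, 57334 and 52218 units under UV and 9914, 10710 and 13453 units in the dark, with a change of 2.43. Whether the scanner's upper limit held down such UV values was not tested.

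At the dim end, 25 models averaged under 2000 units in the dark. CHR11_JGVV52_36_T01 on chromosome 11 had 9668, 7220 and 8202 units under UV and 1526, 1370 and 1523 units in the dark, with a change of 2.64. CHR12_JGVV59_80_T01 on chromosome 12 had 11558, 8532 and 5982 units under UV and 1500, 1327 and 1625 units in the dark, also with a change of 2.64. Both sat just over the limit in the dark, and the size of their change depended on the processing. After background correction and quantile normalization the fitted change was 3.31 for each of them.

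The thresholds cut through a continuous range. Just inside the threshold on change were CHR11_GSVIVT00015167001_T01 at 2.01 and CHR8_JGVV40_111_T01, also at 2.01. Just outside it were CHR13_JGVV84_60_T01 and CHR18_JGVV1_714_T01, both at 1.99. At the background limit, CHR15_JGVV21_213_T01 stayed 1.01 times above it on its weakest array, while CHR7_PDVV151_56_T01, with a change of 3.42, reached 0.98 of it and was left out. CHR9_JGVV2_15_T01 was kept with a neighbour that changed by 0.99, and CHR19_JGVV14_67_T01, with a change of 2.13, was dropped for a neighbour at 1.00.

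The rise was not of the same size on the 3 UV arrays. Against the dark mean, the median over the 158 models was 2.81, 2.52 and 2.39 in UV replicates 1, 2 and 3. UV replicate 1 was the highest of the UV arrays in 136 models (86.1%), against 55.2% of all sets above background. On intensities with no centring it was highest in 110 models (69.6%), against 37.8%. Its median over all sets was the lowest of the 6 arrays, but its upper quartile was the highest of the UV arrays. That quartile was 25388 units in UV replicate 1, 24900 in replicate 2 and 25019 in replicate 3. Without UV replicate 1 the rule found 157 models, 143 of them among the 158.

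The spread between arrays of 1 group comes from the same 6 values that chose the members, so it is given as a description. The SD among UV arrays had a median of 0.20 on the log2 scale, against 0.14 for the 11881 sets above background with a dark mean in the same range. Among dark arrays the medians were 0.21 and 0.10. The UV arrays differed by over 2-fold in 15 of the 158 (9.49%), against 2.34% of those 11881 sets, and the dark arrays in 7 (4.43%), against 0.909%. No test was made of these differences, since gene models are not independent samples. For the UV arrays, the UV level of the members was higher than that of the sets they were set against.

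The extremes of that spread show its form. CHR4_JGVV8_498_T01 on chromosome 4 had 21068, 9171 and 6111 units in UV replicates 1, 2 and 3, the largest SD among UV arrays (0.96), against 1971, 1729 and 2155 units in the dark. All of its UV arrays were above its dark arrays, and its change was 2.58. CHR6_JGVV9_24_T01 on chromosome 6 had the opposite form, with 31286, 31528 and 33544 units under UV and 7084, 10886 and 5227 units in the dark. Its dark arrays had the largest SD of all members (0.66), while its UV arrays agreed to an SD of 0.05.

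Among the dark arrays, the members fell largely into models highest in dark replicate 3 (78) and models highest in dark replicate 2 (71), after median centring. Dark replicate 1 was highest in 9 models (5.70%), against 27.2% of all sets above background, and lowest in 111 (70.3%), against 50.3%. With no centring, dark replicate 2 was the highest dark array in 35 members (22.2%), against 2.07% of sets above background. Dark replicate 2 had the lowest median of the dark arrays, so these 35 models ran against the general brightness of their array. UV arrays agreed better in the models highest in dark replicate 2, with a median SD of 0.13, than in those highest in dark replicate 3, with 0.26. UV arrays differed by over 2-fold in 0 of 71 models of the first kind and in 14 of 78 of the second kind. These kinds were formed after the values had been seen, from dark values that the rule also used. They are a description of the members only, and the difference was not tested.

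**Figure D3:**
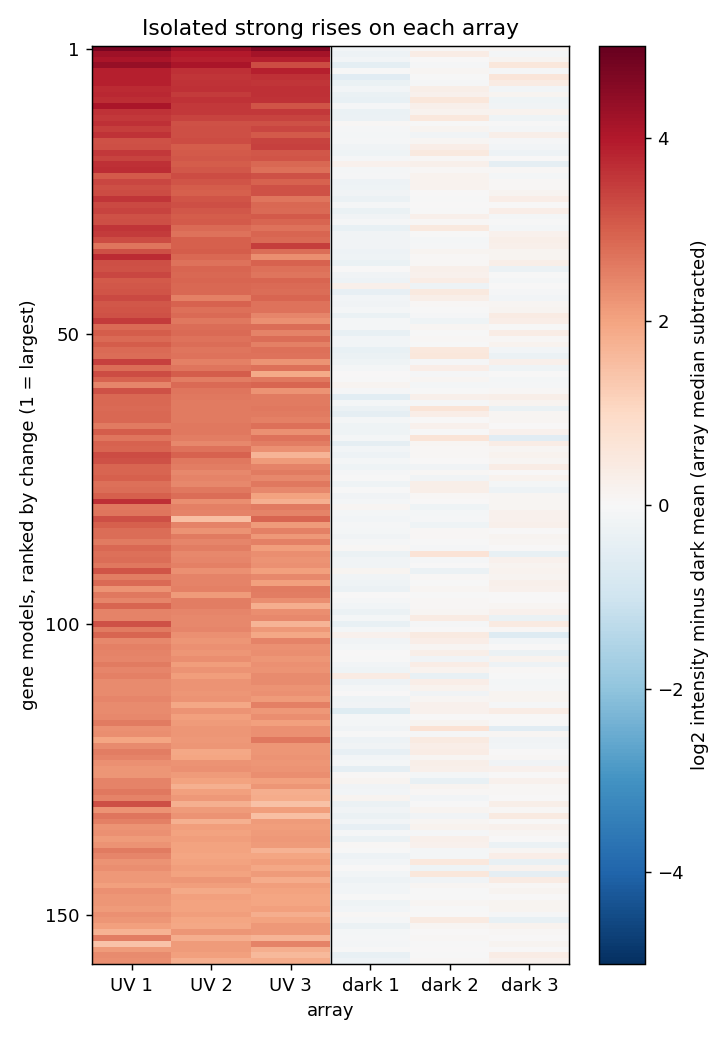
Log2 intensity of each of the 158 isolated models (rows, ranked by change) on each array (columns, UV left, dark right), with the array median and then the model's dark mean subtracted. UV replicate 1 is the darkest red column in most rows (highest in 136 of 158), and the dark arrays differ by far less than the step between the groups.

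The agreement among the probes of a set differed between UV and dark in many members. The coefficient of variation of the 4 probes, the SD over the mean, had a median of 0.39 under UV and 0.40 in the dark over the 158 models. In 58 models the coefficient was higher on every UV array than on any dark array, and in 55 it was lower. Together these were 113 of 158 (71.5%), against 32.0% of all sets above background and 29.3% of the sets in the same range of dark level. The mean coefficient under UV minus that in the dark had quartiles of -0.16 and 0.14 in the members. In the 176 strong rises that the rule dropped they were -0.19 and 0.13, and in all sets above background -0.024 and 0.053. Shifts of this width were thus not particular to the isolated models. Background and the scanner's limit also move the coefficient, and their part in these shifts was not tested.

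The models with a lower coefficient under UV were mostly the bright ones. The 55 models with a lower coefficient had a median UV intensity of 40042 units, and their median coefficient was 0.24 under UV and 0.48 in the dark. In the 58 with a higher coefficient, the median UV intensity was 12646 units, and the median coefficient was 0.61 under UV and 0.38 in the dark. CHR1_JGVV11_507_T01 on chromosome 1 had the lowest coefficient of all members on average over the 6 arrays, with coefficients of 0.061, 0.038 and 0.063 under UV and 0.097, 0.139 and 0.072 in the dark. Its intensity was 50089, 44601 and 44319 units under UV and 6298, 9020 and 8894 units in the dark, so its 4 probes gave nearly the same reading in both groups.

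At the other extreme of that average stood CHR3_JGVV17_87_T01 on chromosome 3, with coefficients of 1.818, 1.779 and 1.805 under UV and 1.286, 1.396 and 1.103 in the dark. Its intensity was 11332, 8633 and 9758 units under UV and 2160, 2478 and 1890 units in the dark. A coefficient this high in a set of 4 arises when nearly all the brightness comes from 1 probe. The mean coefficient was over 1 under UV in 9 members and in the dark in 8, and 5.70% of members under UV compares with 6.78% of sets above background. The widest shift, chosen after the values had been seen, was that of CHR1_GSVIVT00010138001_T01 on chromosome 1, with 1.507, 1.436 and 1.577 under UV and 0.414, 0.477 and 0.460 in the dark. Without the sequences of the probes, signal from related transcripts could not be told apart.

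**Figure D4:**
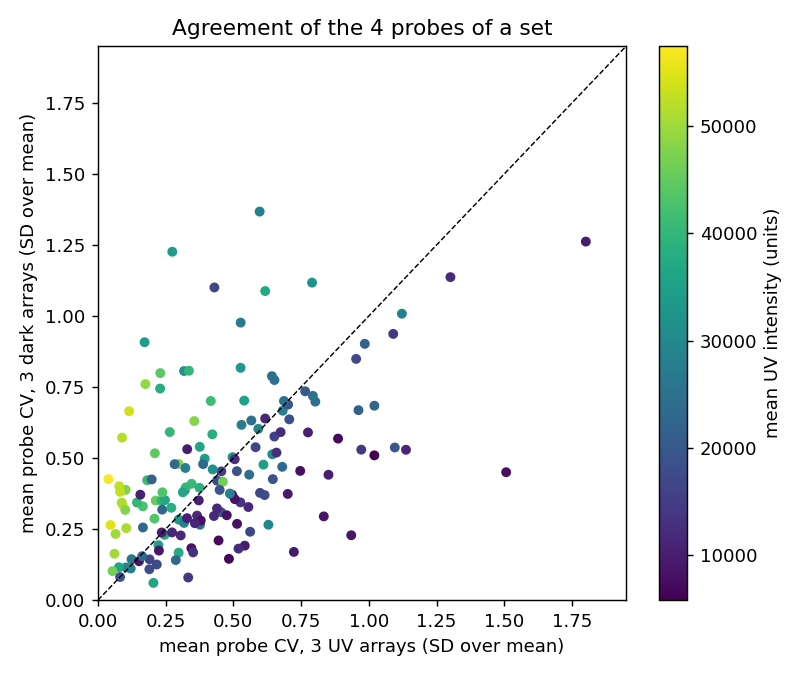
Mean coefficient of variation of the 4 probes over 3 UV arrays (horizontal) against that over 3 dark arrays (vertical) for the 158 isolated models, coloured by mean UV intensity. Points below the dashed line of equality have probes that agree less under UV and are mostly dim, and points above it are mostly bright.

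The isolated models were spread over the genome. They lay on all 19 chromosomes (145 models) and on unplaced sequence (13 models), from 3 on chromosome 3 to 12 on chromosome 4. As a share of sets above background they made up 0.646% over the whole array, 0.306% on chromosome 3 and 0.976% on chromosome 4. On chromosome 10, 5 of the strong rises were isolated and 19 were dropped, 11 of those dropped in block 42. On chromosome 15, 7 were isolated and 2 were dropped. The 143 models with a running number came from 85 blocks, 59 of which held a single one, and the largest number was 7, in block 1 of chromosome 18. The rule drops neighbouring rises and whole groups of identifiers, so this spread partly follows from the choice. Block size was not taken into account, and no test was made of these shares.

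By annotation source, 133 of the isolated models were JGVV models, 10 were PDVV models and 15 were GSVIVT models. Of the JGVV models with a strong rise, 133 of 309 (43.0%) were isolated, while no PDVV or GSVIVT model was dropped. For GSVIVT models this follows from the rule, since they have no running number. Each of the 10 PDVV models had at most 2 models within 3 numbers, 6 of them none, so the rule had few neighbours by which to drop them. The 15 GSVIVT models had a median change of 2.47, the 10 PDVV models one of 2.31 and the 133 JGVV models one of 2.64. PDVV and JGVV numbers are counted separately, with 918 of 1180 PDVV models sharing block and number with a JGVV model. CHR13_JGVV74_26_T01 and CHR13_PDVV74_27_T01, named after their values were seen for this reason, are both isolated by the rule, and whether they neighbour each other is not known.

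Farther from the isolated models, the shares of gene models called higher or lower were near those of the whole array. The rule allowed no change of 1 or more within 3 running numbers, but set no lower limit there and looked no farther. At 4 to 10 running numbers from an isolated model there were 1511 other models. Of these, 244 (16.1%) were called higher, against 15.8% of all sets, and 313 (20.7%) were called lower, against 20.9% (limma, adjusted p under 0.05). Their median change in the fit was -0.06, against -0.05 for all sets. These models hold no members, and with the members left out 15.3% of all sets were called higher. On the scale of the rule, 71 of them (4.70%) had a change of at least 1, against 4.50% of all sets and 3.99% with the members left out. A change of at least 2 was found for 8 of them (0.529%), against 1.25% of all sets and 0.721% with the members left out. Falls of at least 1 were found for 26 (1.72%), against 1.90% of all sets. No test was made of these differences. Without dark replicate 1 the count called lower was 207 (13.7%), against 14.0% of all sets, and without dark replicate 2 it was 201 (13.3%), against 13.5%. Without scaling between arrays 154 (10.2%) were called higher, against 9.95% of all sets. At 4 to 10 running numbers from a model dropped for a neighbour there were 1184 models. Of those, 6 (0.507%) had a change of at least 2, and 50 (4.22%) one of at least 1. Both far groups leave out the models they surround and all models within 3 numbers of these. Each model left out as a centre had itself a change of at least 2. A lower share of such changes therefore partly follows from the choice, and nothing is read from it.

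Directly beside the isolated models, within 3 running numbers, 695 models were measured. The median change of these neighbours was 0.03 on the scale of the rule, against -0.01 for all sets. Of the 695, 117 (16.8%) were called higher, against 15.8% of all sets, and 123 (17.7%) were called lower, against 20.9%. The rule capped the change of these neighbours at 1, so their shares and median are a description. Among them, 13 (1.87%) fell by at least 1, against 1.90%. The lowest change of a neighbour was -2.80. Pairs of isolated models within 10 running numbers came to 3 in all, and the rule allowed none within 3 numbers. This count was not set against an expected one. CHR6_JGVV9_24_T01 at 2.26 and CHR6_JGVV9_31_T01 at 2.24 were 7 numbers apart. CHRUN_JGVV226_5_T01 at 2.14 and CHRUN_JGVV226_10_T01 at 2.88 were 5 apart, and CHR7_JGVV5_248_T01 at 2.45 and CHR7_JGVV5_258_T01 at 2.34 were 10 apart. That running numbers follow the order of genes on a chromosome was assumed, since no coordinates were used.

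**Figure D5:**
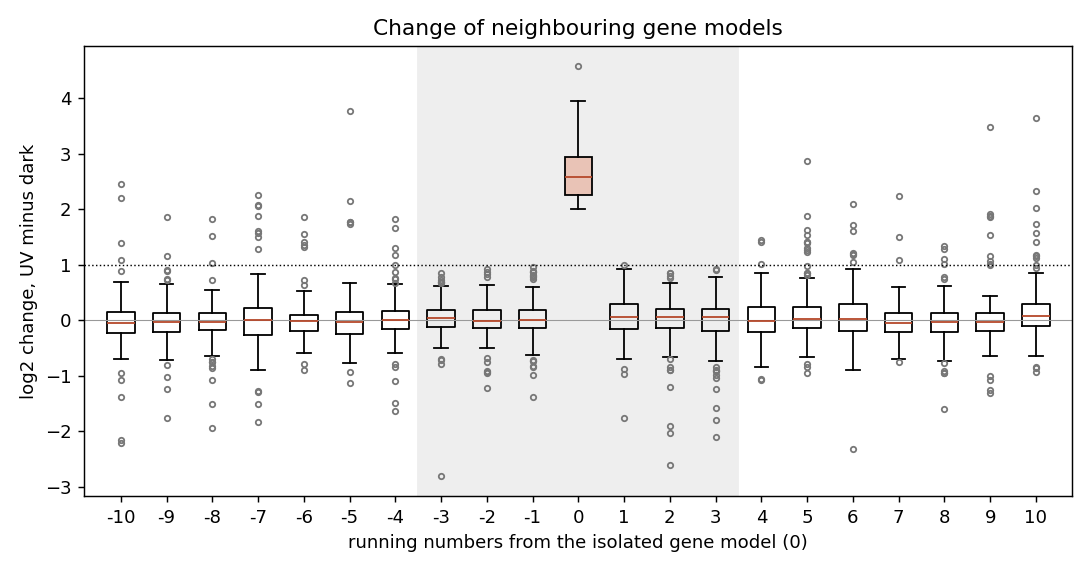
Log2 change of gene models (vertical) by their distance in running numbers from an isolated model (horizontal, isolated models at 0), as boxes of the median and quartiles with whiskers to 1.5 times the box height and single points beyond. Within the grey band the rule allowed no change of 1 or more (dotted line), and outside it the boxes stay centred near 0.

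Set beside the 176 strong rises that were dropped, the isolated models had similar medians in the measures that follow. The median change was 2.58 for the isolated models and 2.63 for the dropped ones. Median UV intensity was 23904 units in the isolated models and 24859 units in the dropped ones, and median dark intensity was 3496 units in the isolated and 3672 units in the dropped ones. The median SD was 0.20 in both sets among UV arrays, and 0.21 in the isolated models and 0.20 in the dropped ones among dark arrays. UV replicate 1 was the highest UV array in 86.1% of the isolated and 84.1% of the dropped models. A change of at least 4 was reached by 2 of the 158 isolated and 5 of the 176 dropped models. Both sets were chosen by the same contrast, and no difference between them was tested.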

How the data were processed

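Per the labels, total RNA of berry skin was labelled with Cy3 by the array's maker and hybridised to 6 NimbleGen arrays. Per the file headers, the deposited files give, for each probe set, a mean perfect-match intensity on a linear scale, the coefficient of variation of its probes (a ratio of SD to mean), and counts of probes (4 in all 158 members). Intensities differed in distribution between arrays and were treated as not normalized. A table deposited by the authors on the log10 scale covers 23096 sets, with an unknown baseline. It held all 158 members. Its column medians were -0.017, -0.0057 and -0.012 for UV replicates 1, 2 and 3, and -0.00018, 0.0100 and 0.0072 for dark replicates 1, 2 and 3. The image software and the genome build were not stated in these sources.

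The members were found on log2 intensity minus each array's median, without background correction. Calls over all 29549 sets came from limma 3.58.1 in R 4.3.3: normexp (offset 50, random-probe row included), quantile normalization, lmFit and eBayes with no covariate, two-sided, Benjamini-Hochberg adjustment, threshold 0.05. Brightness gives no depth, and 3 arrays per group limit the precision. Members, named models and comparisons were chosen with earlier results of these data known. Named models were those with the largest change, the brightest, the dimmest, the most and least variable by array or probe, and those next to a threshold, unless said otherwise. The main fit did not pair arrays by replicate number.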

Additional observations from a re-analysis of the deposited data

How the results depend on the processing

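All 158 members were called higher in limma under all 13 alternative fits. The difference between UV and dark on the same arrays chose the members, so these calls largely follow from the choice. They are no separate test of the rise. Between 145 (authors' value table) and 158 of the members kept a change of at least 2, which is bound to the choice in the same way. Their median change of 2.78 was 2.55 without background correction, 2.51 in the authors' table, and 2.67 to 2.86 with 1 array left out. For the models 4 to 10 numbers away, the median of -0.058 was -0.012 with median centring and -0.16 without scaling, where 154 were called higher; the median of all sets moved likewise, to -0.013 and -0.17. With 1 array left out, 201 to 300 of the models 4 to 10 numbers away (13.3% to 19.9%) were called lower, against 13.5% to 19.1% of all sets. Testing against a 1.5-fold change, a higher bar by construction, gave 63 higher (4.17%) and 23 lower (1.52%), against 4.05% and 1.67% of all sets. Over all sets that test gave 1688 calls in place of 10818. The rule found 323 models with a threshold on change of 1.5, 87 with 2.5, 105 when neighbours up to 10 numbers were looked at, and 93 when the lowest UV array had to exceed the highest dark array by 2. With 1 array left out it found 157 to 172. After normexp and quantile normalization it found 195, 152 of them members. With the replicate number as a block, all 158 members were called higher, against 12.7% of all sets, which again largely follows from the choice. Of the models 4 to 10 numbers away, 187 (12.4%) were called higher and 247 (16.3%) lower, against 12.7% and 16.3% of all sets. The block changed no count here by over 1.5 times. Between arrays of the same number, deviations from the group means had correlations of -0.083, -0.074 and -0.072, so no shared positive deviation was seen. Such correlations cannot show whether arrays of the same number were handled together. Background limits how well the fold of dim models is known. Whether the top of the scanner's range limits that of bright models was not tested.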
